A study of Mus musculus with 9 samples.

Results

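Colonic mucosa from DMH-treated mice that drank butyrate and had no tumors was compared with mucosa from mice given DMH alone. The comparison takes 3 arrays titled as butyrate without tumors and 3 titled as DMH, which are 6 of the 9 arrays of the series. The remaining 3 arrays, from butyrate mice with tumors, enter the fit to help estimate the spread and are shown beside the results. Total RNA of normal colonic mucosa was hybridised to Agilent mouse arrays with 1 dye.

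All mice were of the outbred ICR stock, and all received subcutaneous 1,2-dimethylhydrazine (DMH) at 20 mg/kg each week for 20 weeks. DMH is a carcinogen that is activated by the liver and alkylates DNA in the colon of rodents. The DMH group had plain drinking water and a normal diet, and the butyrate group had 1.5% butyrate in its water. No group without DMH was analysed here, so the comparison is of DMH with butyrate against DMH alone. The labels give neither the age of the mice nor the hour at which tissue was taken, and nothing in them states that each sample is another animal. The p-values therefore measure only the spread between these samples, which may be technical. Titles, descriptions and source names agree on which butyrate samples had no tumors, and the groups follow them. A further label field gives the opposite tumor status for all 6 butyrate samples. If that field is right, the values given here for mice without tumors belong to mice with tumors.

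Butyrate is a short-chain fatty acid that gut bacteria make from fiber. It enters colonocytes through carriers such as Slc16a1 and Slc5a8, is burnt in mitochondria by fatty acid oxidation, and inhibits class I and II histone deacetylases in the nucleus. It also acts on surface receptors, among them Hcar2, Ffar2 and Ffar3. In the colon it is known for feeding the surface epithelium, for damping inflammation and for slowing the growth of transformed cells in culture.

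A level here is the log2 signal of a probe minus the 75th percentile of its array, so 0 is the brightness of the 75th percentile. That percentile was 281 to 444 in the arrays without tumors and 740 to 822 in the DMH arrays, and the share of spots well above background was 61.8% to 66.4% and 63.8% to 69.3%. Slide 1 held the 3 arrays without tumors together with array 1 with tumors, and slide 2 held arrays 2 and 3 with tumors. Slide 3 held DMH array 1, and slide 4 held DMH arrays 2 and 3. The butyrate arrays were scanned on 1 day and the DMH arrays on another. Treatment cannot be told apart from slide and scan day in this comparison. For that reason the 3 arrays with tumors, which had butyrate too but lay partly on another slide, are given beside the main values. The array with tumors on slide 1 was the dimmest of the 9, with a 75th percentile of 188 and 57.8% of spots well above background. It also differed in lymphocyte signal. Relative to the 75th percentile, T and NK lymphocyte genes summed to 53.05 on it and to 6.9 and 12.63 on arrays 2 and 3 with tumors. The difference between DMH arrays 2 and 3 had an SD of only 0.118 over 197 probes with duplicate spots. That SD was 0.388 between DMH arrays 1 and 2, which lay on different slides. It was 0.485 to 0.827 between pairs of arrays without tumors, which shared slide 1. The spread of duplicate spots alone would give the difference between DMH arrays 2 and 3 an SD of 0.0745. DMH arrays 2 and 3 were kept as 2 samples, and counts with their mean used as 1 sample are given where they differ. Vil1, a brush border protein, had a log2 difference of 0.17 (adjusted p = 0.429), with -0.225 in a second probe that did not pass. The epithelial genes Epcam and Krt19 were bright on every array, from 4.85 to 6.30 and from 6.66 to 7.79. Both were nevertheless called lower without tumors than in DMH, as given below. The smooth muscle gene Cnn1 was as bright, with levels of 5.45 to 7.41 over the 9 arrays.

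Of 21964 features tested, 6695 (30.5%) differed between butyrate without tumors and DMH at an adjusted p under 0.05. Butyrate was higher in 3657 (16.6%) and lower in 3038 (13.8%), and the median log2 difference over all features was 0.08. Named genes made up 15346 of the features and 4422 of the calls. A change of at least 2-fold was found in 3924 of the called features, and in 13178 features the 3 arrays of each group did not overlap. Among the named genes the falls were deeper than the rises: the 12 deepest falls included alpha-defensins, angiogenins, neutrophil and chemokine genes, and the 12 steepest rises included genes of neurons and of neuronal synapses.

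Fewer calls were made when the arrays that share a slide were allowed to vary together. With slide as a random block, 1006 features (4.58%) were called, all of them among the 6695, with 495 higher and 511 lower. Of the calls made in the 3-group fit, 54.6% were higher, against 67.1% of the 5628 calls made from the authors' values. Without any scaling the median over all features was -1.004 and 35 of the 203 called named genes, all rises of at most 1.045, turned to a negative difference, so every direction here is relative to the 75th percentile. Leaving out DMH array 1, 2 or 3, or array 2 without tumors, left 4158, 2841, 2914 and 3979 calls. The plot of all features shows falls reaching further than rises.

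**Figure D1:**
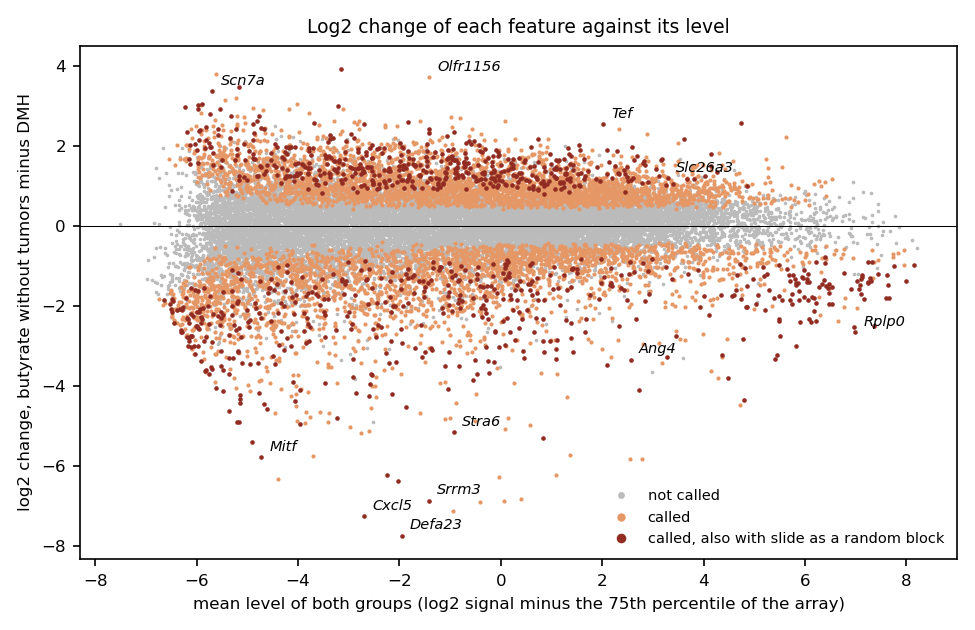
Each point is 1 of the 21964 features: the x axis is its mean level over the arrays compared (log2 signal minus the 75th percentile of the array) and the y axis its log2 difference, butyrate without tumors minus DMH. Grey points were not called, orange points were called at an adjusted p under 0.05, dark red points also with slide as a random block, and the falls reach beyond -7 while the rises stay below 4.

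Genes of the circadian clock rose with butyrate more often than they fell. In the clock, the activators Arntl, Npas2 and Clock drive transcription from E-boxes, Per and Cry proteins shut them off, Nr1d receptors set the rhythm of Arntl, and Dbp, Tef and Hlf carry the rhythm to output genes through D-boxes. Of 20 measured clock genes 8 rose and 2 fell, against backgrounds of 16.6% and 13.8% over all features. The list's median difference was 0.83, against 0.08 over all features. Those that rose included repressors and output factors, and the 2 that fell were activators. The sequences of the E-box promoters of Per1 and Tef are shown because these 2 called genes carry that letter string close to a start. They are RefSeq promoter windows of build GRCm38.p6, 250 bases up to the start on the plus strand, at chr11:69098699-69098948 for Per1 and at chr15:81802423-81802672 and chr15:81811164-81811413 for the 2 starts of Tef. Capitals mark the E-box CACGTG, which reads the same on both strands and lies 166, 127 and 138 bases before the start.
Per1: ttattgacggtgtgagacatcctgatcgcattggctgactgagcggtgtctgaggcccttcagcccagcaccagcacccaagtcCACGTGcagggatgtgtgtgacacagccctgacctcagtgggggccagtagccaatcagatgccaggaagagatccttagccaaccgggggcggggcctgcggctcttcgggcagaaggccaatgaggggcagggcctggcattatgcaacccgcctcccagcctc
Tef, first start: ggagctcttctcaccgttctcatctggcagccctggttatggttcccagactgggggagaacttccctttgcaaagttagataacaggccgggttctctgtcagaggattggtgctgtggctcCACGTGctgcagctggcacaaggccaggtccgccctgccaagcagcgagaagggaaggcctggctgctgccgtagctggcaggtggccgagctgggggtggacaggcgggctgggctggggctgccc
Tef, second start: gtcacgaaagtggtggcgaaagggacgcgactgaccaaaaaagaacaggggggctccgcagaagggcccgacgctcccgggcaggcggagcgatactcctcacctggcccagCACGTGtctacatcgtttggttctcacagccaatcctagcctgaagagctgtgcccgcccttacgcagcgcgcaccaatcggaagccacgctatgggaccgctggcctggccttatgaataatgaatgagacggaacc
CACGTG was found in 1978 of 32851 promoter windows in the table (6.02%). Among the clock genes it was found at 5 of 24 starts, which belong to 4 of the 16 genes with an entry: Ciart with 3 copies, Cry1, Per1 and Tef. The D-box TTATGTAA, searched on both strands, was in 269 windows (0.819%), and among the clock genes in Per3 alone, with 2 matches. A match describes the letters in this window only.

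Per1, a repressor that the E-box drives, had levels of 1.15, 1.12 and 0.96 without tumors and 0.02, -0.06 and -0.18 in DMH. Its groups did not overlap, and the difference was 1.15 (SE 0.15, adjusted p = 0.00242). Cry2, the partner of Per proteins in repression, had levels of 0.52, 0.17 and 0.25 against -0.94, -0.95 and -1.09, a difference of 1.31 (adjusted p = 0.00162). Per3 had levels of -1.72, -1.76 and -1.90 against -3.93, -4.01 and -4.04. All 3 arrays without tumors were higher, by 2.20 (adjusted p = 0.00491). Among arrays with tumors Per3 was at -4.10 on the array of slide 1 and at -2.49 and -2.97 on slide 2.

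Nr1d2, also called Rev-erb beta, is a receptor that represses Arntl. Its levels were 2.29, 2.42 and 2.02 without tumors, 1.29, 1.72 and 1.38 with tumors and 0.42, 0.51 and 0.40 in DMH. The arrays without tumors lay above all others, and the difference from DMH was 1.80 (SE 0.18, adjusted p = 0.00127).

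Tef, Dbp and Hlf are related PAR bZIP factors that bind D-boxes. Tef had levels of 3.44, 3.30 and 3.15 without tumors, 2.82, 2.25 and 2.11 with tumors and 0.81, 0.95 and 0.49 in DMH. Every butyrate array stood above every DMH array, and the difference without tumors was 2.55 (SE 0.23, adjusted p = 0.00116), with 2.04 in a second, dimmer probe that was also called. Dbp had levels of 4.61, 5.18 and 4.31 without tumors, 4.62, 4.05 and 3.91 with tumors and 2.84, 2.55 and 2.21 in DMH, a difference of 2.17 (adjusted p = 0.00256). Hlf rose by 2.48 (adjusted p = 0.00519), from -3.16, -3.48 and -3.92 in DMH to -0.59, -0.65 and -1.89. In all 3 genes the highest array with tumors was the one on slide 1.

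The activators moved the other way. Npas2, a partner of Arntl in place of Clock, had levels of -2.22, -2.11 and -1.93 against -0.95, -1.04 and -0.91, a difference of -1.12 (adjusted p = 0.00561). Arntl itself, also called Bmal1, had levels of -1.30, -0.82 and -0.21 against 0.34, 0.18 and 0.29. It was lower in all 3 arrays, by -1.05 (SE 0.26, adjusted p = 0.0202). The 10 clock genes that did not pass ranged from Nfil3, a repressor of D-box genes, at -0.93 to Ciart at 1.84. Per2 was at 1.23 with -0.85 in its second probe, Clock at -0.57, Cry1 at 0.22 and Nr1d1 at -0.14. With DMH arrays 2 and 3 averaged 8 rose and 1 fell, and with slide as a random block 7 clock genes were called, among them Per1, Per3, Cry2, Nr1d2, Dbp and Tef.

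**Figure D2:**
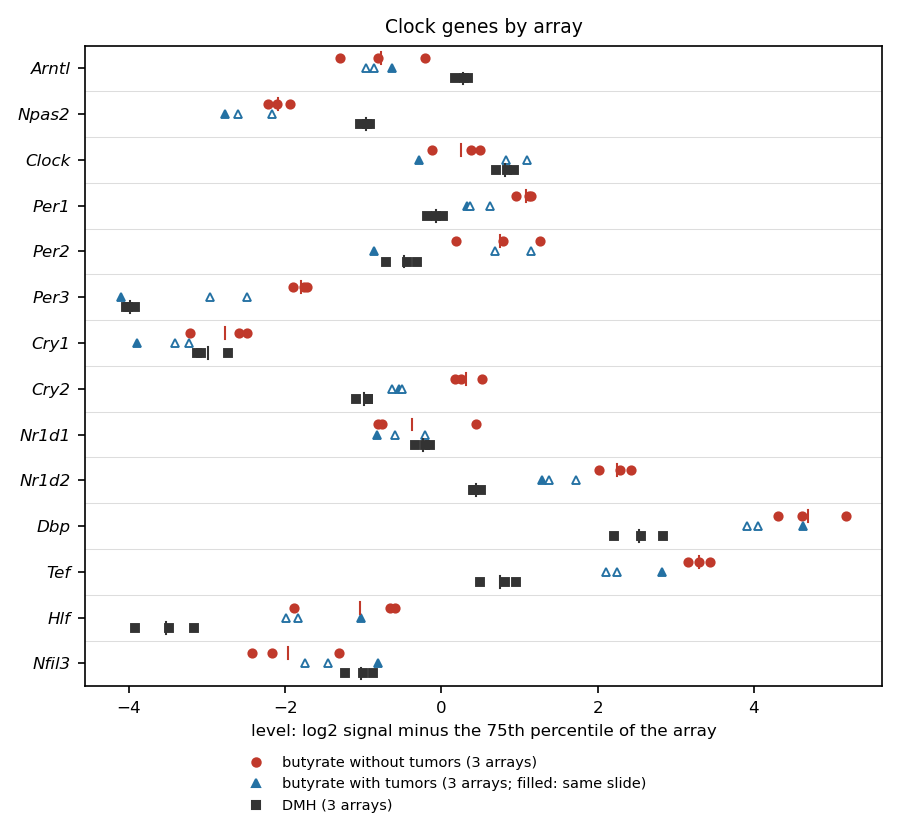
Levels of clock genes (log2 signal minus the 75th percentile of the array) on each of the 9 arrays, by group. Points of butyrate without tumors lie to the right of DMH for Per1, Per3, Cry2, Nr1d2, Dbp, Tef and Hlf and to the left for Arntl and Npas2.

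Alpha-defensins and angiogenins, peptides of secretory epithelial cells that kill or check bacteria, were lower with butyrate. Alpha-defensins are made by Paneth cells of the small intestine and are normally scarce in mouse colon. The list of antimicrobial defence, which holds Defa3, Defa20, Ang2 and Ang4 but not Defa22 or Defa23, had 23 measured genes, of which 8 fell and none rose, against 13.8% lower over all features, with a median of -0.86. The alpha-defensin genes have closely similar sequences, as do the angiogenin genes, so 1 probe may read several of them. With slide as a random block 4 of the 8 were called: Ang2, Ang4, Lgals4 and Lypd8.

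Defa23, an alpha-defensin, had levels of -7.21, -6.07 and -4.22 without tumors, -3.28, 1.29 and 1.13 with tumors and 1.48, 2.08 and 2.20 in DMH. The arrays without tumors were low, the array with tumors on the same slide was low as well, and both arrays with tumors on slide 2 were near DMH. The difference without tumors was -7.75 (SE 1.21, adjusted p = 0.00439), with 1 of the 3 arrays well above background. Defa20 showed the same layout, with -4.13, -1.03 and -0.91 without tumors, -0.09 on slide 1 with tumors, 3.07 and 3.80 on slide 2 and 4.29, 4.07 and 4.25 in DMH, a difference of -6.23 (adjusted p = 0.00665). Defa22 was at least 18.1-fold lower, being well above background on no array without tumors (adjusted p = 0.00654), and Defa3 fell by 3.27 on the log2 scale (adjusted p = 0.00672). For these 4 defensins the split among the arrays with tumors follows the slide, but it rests on 1 array of slide 1. Slide cannot be told apart from the other differences of that array. With slide as a random block Defa23 was called (adjusted p = 0.0474), and Defa22, Defa3 and Defa20 were not (adjusted p = 0.0587, 0.061 and 0.0747).

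Ang4, an angiogenin that goblet and Paneth cells release against bacteria, was low on both butyrate slides, which were scanned on 1 day. Its levels were 1.08, 0.85 and 0.73 without tumors, 1.68, 0.88 and 1.18 with tumors and 4.25, 4.15 and 4.29 in DMH. All 6 butyrate arrays lay below 2 and all DMH arrays above 4, and the difference without tumors was -3.35 (SE 0.22, adjusted p = 0.000462). Ang2 here is angiogenin 2, an RNase of the same family, and not the vessel factor angiopoietin 2. It had levels of -6.53, -4.79 and -4.33 against 0.26, 1.55 and 1.70, a difference of -6.38 (adjusted p = 0.00197), with 2 of the 3 arrays without tumors well above background. Lgals4, a galectin of the epithelial surface, fell by 1.81 on the log2 scale from 8.59, 8.53 and 8.37 to 6.61, 6.56 and 6.91 (adjusted p = 0.00109). Lypd8, which keeps flagellated bacteria away from the colonic surface, fell by 1.38 (adjusted p = 0.00417). Itln1, an intelectin that binds bacterial sugars, and Saa3, an acute phase protein, had differences of -2.83 and -2.82 (adjusted p = 0.0242 and 0.0265).

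Other deep falls came from single genes of varied function. Srrm3, a splicing factor of neuronal microexons, had levels of -4.34, -5.46 and -4.76 without tumors, -3.45, -2.06 and -1.83 with tumors and 1.89, 2.25 and 1.93 in DMH. No butyrate array came within 3 log2 units of DMH, and the difference without tumors was -6.87 (SE 0.44, adjusted p = 0.000459). Stra6, the membrane receptor for retinol carried by its binding protein, had levels of -3.54, -3.34 and -3.66, then -2.30, -1.06 and -0.41 with tumors, against 1.50, 1.81 and 1.63. The difference was -5.16 (SE 0.41, adjusted p = 0.000852). Mitf, the transcription factor of melanocytes, mast cells and osteoclasts, was well above background on none of the 6 butyrate arrays. It entered the test through the 3 DMH arrays alone and is given no p-value for that reason. The arrays without tumors were at least 11.8-fold lower than DMH. Arid3a, a DNA-binding protein of B cells and embryonic tissue, was at least 9.12-fold lower (adjusted p = 0.00462). Its levels on slide 2 with tumors, -2.27 and -1.69, lay between those of the DMH arrays, -3.43, -1.57 and -1.63. Krt36, a hair keratin, had a difference of -5.10 (adjusted p = 0.0152) with 2 of the 3 arrays without tumors well above background, and its second probe had -3.99.

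**Figure D3:**
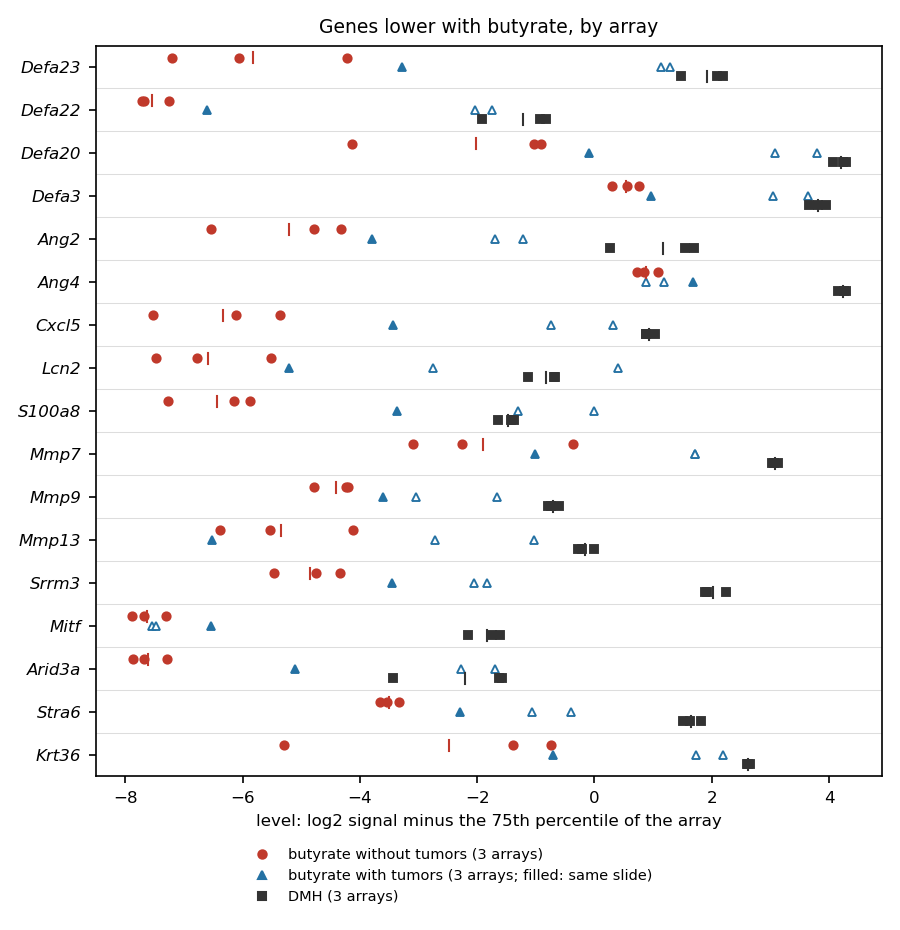
Levels of 17 genes that were lower with butyrate (log2 signal minus the 75th percentile of the array) on each of the 9 arrays; short bars are group means, and the filled triangle is the array with tumors on the slide of the arrays without tumors. For Defa23, Defa22, Defa20 and Defa3 the open triangles lie near DMH, while for Ang4 and Mitf all butyrate arrays lie far below DMH.

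Genes of neutrophils, the first white cells to enter inflamed tissue, were lower with butyrate. Of 13 measured neutrophil genes 11 fell and none rose, with a median of -2.07 against 0.08 over all features and a background of 13.8% lower, and 5 of the 13 were well above background on no array without tumors. In bulk tissue, fewer cells of a type and less RNA per cell cannot be told apart. The summed signal of the list, relative to the 75th percentile, was 0.4 to 0.7 without tumors, 1.2, 2.2 and 7.8 with tumors and 4.7 to 5.1 in DMH. S100a8, a calcium-binding alarm protein of neutrophils, was at least 15.1-fold lower, being well above background on no array without tumors (adjusted p = 0.0039). Its partner S100a9 had levels of -2.18, -3.57 and -4.81 without tumors, -1.99, -0.14 and 2.08 with tumors and 1.29, 1.30 and 1.36 in DMH. The 3 arrays without tumors were below all DMH arrays, by -4.84 (adjusted p = 0.00981). Lcn2, a siderophore-binding protein that inflamed epithelium also makes, was at least 23.8-fold lower (adjusted p = 0.0108). Ltf, lactoferrin, was at least 9.74-fold lower (adjusted p = 0.00737). Mmp9, gelatinase B, had levels of -4.24, -4.21 and -4.79 against -0.79, -0.73 and -0.61, a difference of -3.70 (SE 0.44, adjusted p = 0.00178). The granule gene Mpo (-0.57) and the receptor gene Fpr2 (-0.08) did not pass. With slide as a random block only S100a8 and Mmp9 remained of the 11, and with DMH arrays 2 and 3 averaged 7 fell.

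Chemokines that call neutrophils were lower in the same arrays. The list of NF-kB and inflammatory cytokines held 37 measured genes, of which 13 fell and 1 rose, against 13.8% lower and 16.6% higher over all features, with a median of -0.64. Cxcl5, Cxcl3 and Il1a alone of the 14 were called with slide as a random block. Cxcl3 and Il1a were well above background on the 3 DMH arrays and on only 1 array with tumors. They passed the filter only with the help of the group where they were high, so their calls are weak support. Cxcl5, a neutrophil chemokine made by epithelium, had levels of -6.12, -5.37 and -7.53 without tumors, -3.44, -0.74 and 0.32 with tumors and 0.87, 0.88 and 1.04 in DMH. Its fitted difference was -7.27 (SE 0.90, adjusted p = 0.00196), with only 1 of the 3 arrays without tumors well above background, so its size is uncertain. Cxcl3 was at least 3.52-fold lower and Cxcl2 at least 2.68-fold lower (adjusted p = 0.00205 and 0.00584). Il1b, a master cytokine of inflammation, had levels of -2.42, -1.78 and -1.66 against -0.30, -0.09 and -0.03, a difference of -1.81 (adjusted p = 0.0075). Il1a was at least 1.59-fold lower (adjusted p = 0.00222), and Il33, an alarm cytokine of epithelium and stroma, fell by 1.16 on the log2 scale (adjusted p = 0.00609). Tnf fell by 1.14 and the NF-kB subunit Nfkb2 by 1.11 (adjusted p = 0.0164 and 0.0107). The 1 member that rose was Tnfaip3, also called A20, an enzyme that switches NF-kB signalling off. It had levels of 3.13, 3.48 and 3.28 against 2.05, 2.00 and 1.96, a difference of 1.30 (adjusted p = 0.0105). Ptgs2, the inducible cyclooxygenase, had a difference of -1.01 that did not pass.

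Several mast cell genes were lower, while most lymphocyte and macrophage genes did not pass. Of 11 mast cell genes 6 fell and none rose (median -1.90), against 13.8% lower over all features. Fcer1a alone was called with slide as a random block, and the proteases Mcpt1, Mcpt2 and Cpa3 were not (adjusted p = 0.147, 0.242 and 0.17). Ms4a2, another chain of the IgE receptor, had a difference of 1.75 that did not pass (adjusted p = 0.06). The summed signal of this list was 1.7 to 4.7 without tumors, 2.6, 6.4 and 9.1 with tumors and 10.7 to 12.7 in DMH. Fcer1a, the IgE-binding chain of that receptor, had levels of -3.99, -4.39 and -4.55 against -2.28, -2.51 and -2.67, a difference of -1.82 (SE 0.24, adjusted p = 0.00233). Mcpt1, the protease of mucosal mast cells, had levels of -5.21, -1.95 and -1.67 against 1.82, 1.89 and 2.08. Array 1 without tumors was the lowest for Mcpt1, as it was for Mcpt2 and Cpa3, and the difference was -4.88 (adjusted p = 0.0142), with 2 of the 3 arrays without tumors well above background. Without 1 array in turn, between 2 and 8 mast cell genes fell, 2 of them when DMH array 2 or 3 was left out. Of 19 macrophage and dendritic cell genes 4 fell (Fcgr1, Adgre1, Aif1 and Cx3cr1), of 12 B lymphocyte and plasma cell genes 3 fell, and of 16 T and NK lymphocyte genes Cd4 alone fell, by at least 1.68-fold. Jchain, which joins IgA molecules in plasma cells, had levels of 2.46, 3.72 and 2.95 against 5.89, 5.79 and 5.94, a difference of -2.83 (adjusted p = 0.00846) with -2.22 in a second probe.

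Goblet cells secrete the mucus layer, and 9 of 20 measured goblet cell genes fell while none rose (median -1.06), against 13.8% lower over all features. The summed signal of the list was 555.2 to 721.1 without tumors, 307.3 to 963.6 with tumors and 1638 to 1800 in DMH. Tff3, a trefoil peptide of mucus, had levels of 4.98, 5.79 and 5.65 against 7.90, 7.80 and 7.83. Its groups were far apart, with a difference of -2.37 (SE 0.49, adjusted p = 0.0104). Spink4, a protease inhibitor of goblet cells, had a difference of -2.24 (adjusted p = 0.0107), and Muc13, a membrane mucin, of -1.36 (adjusted p = 0.0149). Fcgbp and Clca1, both abundant mucus proteins, differed by -1.82 and -1.32 (adjusted p = 0.0309 and 0.0394). Muc2, the mucin that forms the gel, had a difference of -1.22 that did not pass (adjusted p = 0.0694), with 0.42 and 0.37 in 2 dimmer probes that did not pass either. Only 3 goblet cell genes fell with DMH arrays 2 and 3 averaged, and with slide as a random block Ang4 alone was called.

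Of 25 measured genes of absorptive colonocytes 4 rose and 6 fell, against 16.6% higher and 13.8% lower over all features. With slide as a random block only Krt18 and Ceacam1 were called, so none of the 4 rises was. Slc26a3, the chloride and bicarbonate exchanger, had levels of 3.51, 3.88 and 4.24 against 2.64, 2.78 and 2.64, a difference of 1.19 (SE 0.25, adjusted p = 0.0106). Aqp8, a water channel, had levels of 6.96, 6.86 and 6.69 against 6.05, 5.64 and 5.49, a difference of 1.11 (adjusted p = 0.0157). Both groups were apart for these genes. Scnn1a, a subunit of the epithelial sodium channel, rose by 0.97 and Slc9a2, a sodium and proton exchanger, by 0.87 (adjusted p = 0.0102 and 0.0282), although the mean over all probes of Scnn1a had the other sign. The 6 that fell were Krt18 by 1.24 on the log2 scale (adjusted p = 0.00368), Epcam by 1.00, Krt8 by 0.98 (measured on 2 arrays without tumors), Krt20 by 0.81, Krt19 by 0.61 and Ceacam1 by 1.39. A second probe of Ceacam1 was called in the other direction, at 1.15. Car1, a carbonic anhydrase of the colonic surface, had a difference of 0.10 that did not pass.

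Tissue-remodelling proteases and Wnt feedback genes were lower. Of 17 metalloproteinase and inhibitor genes 6 fell and 1, the inhibitor gene Timp3, rose, against 13.8% lower and 16.6% higher over all features. Mmp9 alone was called with slide as a random block, and Mmp7, Mmp10 and Mmp13 were not (adjusted p = 0.0678, 0.136 and 0.147). Mmp7, matrilysin, which cuts alpha-defensins into active form in mice and is a Wnt target in intestinal adenomas, had levels of -0.37, -3.09 and -2.26 without tumors, -1.01, 1.71 and 1.72 with tumors and 3.06, 3.04 and 3.13 in DMH. The difference was -4.98 (SE 0.85, adjusted p = 0.00572). Mmp10 had a difference of -4.82 and Mmp13 of -5.18 (adjusted p = 0.0135 and 0.0163), the latter with 1 of the 3 arrays without tumors well above background. Of 33 genes of Wnt targets and the crypt base 10 fell and 4 rose (median -0.49), against the same shares over all features. The rises of Tcf7l2 and Apc were called with slide as a random block, and none of the 10 falls was. Those that fell included the negative feedback genes Notum (-4.67), Nkd1 (-2.39) and Rnf43 (-1.56), and the transcription factor Sp5, with levels of -3.42, -2.81 and -2.94 without tumors, -2.45, 0.35 and 1.87 with tumors and 0.82, 0.84 and 0.91 in DMH. The Sp5 difference was -3.91 (adjusted p = 0.0148). Arrays of slide 2 with tumors were near or above DMH for Sp5, Notum, Nkd1 and Rnf43, and the array of slide 1 with tumors was near the arrays without tumors. Myc, a growth-promoting Wnt target, had a difference of -0.72 (adjusted p = 0.0339), and Lgr5, the stem cell receptor, had -1.44 that did not pass (adjusted p = 0.0789). Rspo2, a ligand of Lgr receptors made by mesenchyme, was at least 3.48-fold higher (adjusted p = 0.0107). Tcf7l2, the main Wnt transcription factor of the gut, rose by 1.04 (adjusted p = 0.00442), with 0.89 and 0.57 in 2 other probes. Of the Wnt list 3 rose and 3 fell with DMH arrays 2 and 3 averaged. Apc, the brake on beta-catenin, rose by 1.08 in its brightest probe and another probe was called at -1.56, so it has no settled direction.

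Keratins of squamous epithelium, which lines the anal canal next to the colon, were also lower in the arrays without tumors. Of 13 measured genes 5 fell and none rose, against 13.8% lower and 16.6% higher over all features, and 4 of the 13 were well above background on no array without tumors. Among those that fell were Krt6a, at least 5.77-fold lower, and Dsg3, at least 4.54-fold lower (adjusted p = 0.00242 and 0.0021). Summed signal of the list nevertheless overlapped, with 14.7, 7.5 and 7.3 without tumors and 12.5, 12.1 and 11.7 in DMH.

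Most ribosomal protein genes fell. Of 78 measured genes of the cytosolic ribosome 51 fell and 1 rose, against 13.8% lower and 16.6% higher over all features. The median was -0.81, and in 72 the groups did not overlap, against 60% of all features. Rpl11, a protein of the large subunit that also binds Mdm2, had levels of 4.99, 5.01 and 5.09 without tumors, 6.54, 6.77 and 6.73 with tumors and 7.47, 7.41 and 7.33 in DMH. The arrays without tumors were lowest, those with tumors in between and DMH highest, and the difference without tumors was -2.38 (SE 0.14, adjusted p = 0.000377). Rpl6 showed the same order, with 4.11, 4.29 and 4.52 against 6.62, 6.73 and 6.69, a difference of -2.37 (adjusted p = 0.000852). Rplp0, of the ribosomal stalk, had a difference of -2.66 (adjusted p = 0.00104) and -0.78 in a second called probe. The deepest fall of the list was of Rps27a, a fusion of ubiquitin and a small subunit protein, with 2.15, 2.79 and 2.92 against 6.83, 7.16 and 6.94, a difference of -4.35 (adjusted p = 0.00343). Falls varied widely among subunits, and Rps25 fell by only 0.50 on the log2 scale. The member that rose was Rpl21, by 1.29 (adjusted p = 0.00576), which was not called with slide as a random block (adjusted p = 0.0689). A second, dimmer probe of Rpl21 had -0.26 and did not pass. With slide as a random block 32 ribosomal genes were called, with DMH arrays 2 and 3 averaged 40 fell and 1 rose, and many ribosomal genes have processed pseudogenes of nearly the same sequence that a probe can also read.

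Respiratory chain genes fell in part. Of 43 measured genes of oxidative phosphorylation 15 fell and 2 rose (median -0.26), against 13.8% lower and 16.6% higher over all features. With quantile scaling 12 fell and 8 rose and the median was -0.02. Atp5b, the catalytic subunit of ATP synthase, had levels of 5.25, 5.11 and 5.33 without tumors, 5.93, 6.57 and 6.42 with tumors and 7.06, 7.04 and 6.98 in DMH. Its difference of -1.79 (SE 0.19, adjusted p = 0.00141) was called with slide as a random block too, as was that of Cox6c, a subunit of complex IV, at -1.52 (adjusted p = 0.00197). The 2 that rose, Sdha at 0.61 and Sdhb at 0.67, are the catalytic subunits of complex II, and another probe of Sdha was called at -1.18.

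Chaperones, DNA repair genes and genes of the cell cycle were lower in smaller numbers. Of 32 genes of ER stress and heat shock 11 fell and 3 rose. Hspa8, the constitutive Hsp70, had levels of 1.84, 3.03 and 3.29 against 5.90, 6.07 and 6.04, a difference of -3.28 (adjusted p = 0.0092) with -1.17 in another probe. Hsp90aa1, the inducible Hsp90, fell by 1.57 on the log2 scale, and Hspa5, the ER chaperone BiP, by 0.86 (adjusted p = 0.0117 and 0.026). Of 38 proliferation genes 10 fell and 1 rose, and of 31 DNA repair genes 7 fell and none rose, against 13.8% lower and 16.6% higher over all features. Foxm1, a transcription factor of mitotic genes, had levels of -0.77, -0.46 and -0.44 against 0.59, 0.44 and 0.45, a difference of -1.05 (adjusted p = 0.00653). Cdk1, the mitotic kinase, fell by 1.24 (adjusted p = 0.012), and Mki67, the usual mark of cycling cells, had a difference of -0.58 that did not pass (adjusted p = 0.077), while a second, dimmer probe was called at -1.69 (adjusted p = 0.0162). Bub1, a spindle checkpoint kinase, rose by 1.27 in its brightest probe, with -0.72 in another. Xrcc6, also called Ku70, which binds broken DNA ends, fell by 1.45 (adjusted p = 0.00516), and Alkbh2, which removes alkyl groups from DNA, had levels of -1.12, -1.14 and -0.86 against -0.11, -0.16 and -0.21, a difference of -0.88 (adjusted p = 0.00537). The p53 list gave 3 rises and 4 falls among 30 genes. With DMH arrays 2 and 3 averaged, 2 of the chaperone list, 3 of the proliferation list and 2 of the repair list fell, and with slide as a random block no member of these 3 lists was called.

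Genes of the muscle wall and of enteric nerves were higher with butyrate. Of 18 measured smooth muscle genes 10 rose and none fell, against 16.6% higher and 13.8% lower over all features, with a median of 1.097. Pgm5, a protein of muscle adhesion sites, had levels of 3.78, 3.94 and 2.91 without tumors, 3.46, 2.69 and 2.13 with tumors and 1.35, 1.17 and 0.86 in DMH. Its difference was 2.42 (SE 0.38, adjusted p = 0.00456), with 1.61 and 0.75 in 2 other probes. Actg2, the actin of enteric muscle, had levels of 6.71, 6.71 and 4.77 against 4.76, 4.24 and 4.17. Array 3 without tumors stood apart from the other two here and was level with DMH array 1, and the difference was 1.67 (adjusted p = 0.0411). The same array lay lowest of its group in Myh11, Lmod1, Mylk and Cnn1. Summed signal of the list was 1044, 864.1 and 469.5 without tumors, 1059, 670.5 and 559.1 with tumors and 500.3, 352.0 and 289.3 in DMH, so array 3 without tumors lay below DMH array 1. Without array 3 of this group 13 smooth muscle genes rose, without its array 1 or array 2 only 1 did, and with DMH arrays 2 and 3 averaged only 1 did. None was called with slide as a random block, and the part of muscle content in the differences of other genes was not tested.

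Of 21 measured genes of enteric neurons and glia 8 rose and 1 fell (median 1.22), against 16.6% higher and 13.8% lower over all features. Summed signal was 11.96 to 21.5 without tumors, 9.0 to 22.2 with tumors and 6.6 to 8.0 in DMH. Slc5a7, the choline carrier of cholinergic neurons, had levels of -1.95, -2.49 and -3.07 without tumors, -2.37, -4.33 and -2.98 with tumors and -5.78, -5.55 and -5.33 in DMH. All butyrate arrays were above DMH, and the difference without tumors was 3.05 (SE 0.48, adjusted p = 0.0046). The neuropeptide gene Vip had levels of 0.70, 0.93 and 1.04 against -0.48, -0.31 and -0.31, a difference of 1.25 (adjusted p = 0.016). Elavl3, a neuronal RNA-binding protein, went the other way and was at least 1.69-fold lower (adjusted p = 0.0192). With DMH arrays 2 and 3 averaged 2 of the list rose, and with slide as a random block none was called. Several of the steepest single rises were also of genes known from neurons or glia: the ion channel Scn7a, at least 2.68-fold higher, the glutamate receptor Gria1, at least 4.02-fold, the synaptic scaffold Dlg4, at least 2.94-fold, and Sphkap, an anchor of protein kinase A, at least 2.09-fold (adjusted p = 0.00127, 0.01, 0.0426 and 0.00359). In these 4 genes no DMH array was well above background, and Scn7a and Sphkap were also called with slide as a random block. Scn7a and Sphkap were well above background on only 1 and 2 arrays with tumors. They passed the filter only with the help of the arrays without tumors, where they were high.

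The steepest measured rise was of Olfr1156, an olfactory receptor gene, from -3.03, -3.19 and -3.60 in DMH to 1.31, 0.17 and -0.15 without tumors. Its levels with tumors were -1.28 on slide 1 and -3.51 and -2.68 on slide 2, and the difference without tumors was 3.72 (SE 0.57, adjusted p = 0.0041). Among vessel genes 3 of 15 rose and 1 fell, against 16.6% higher and 13.8% lower over all features. Kdr, the main receptor of vascular endothelial growth factor, was at 1.12 and Vwf, a clotting protein of endothelium, at 0.72 (adjusted p = 0.0393 and 0.0329). A second probe of Vwf had -0.25 and did not pass. Fibroblast genes gave 2 rises among 17, Lum and Postn.

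**Figure D4:**
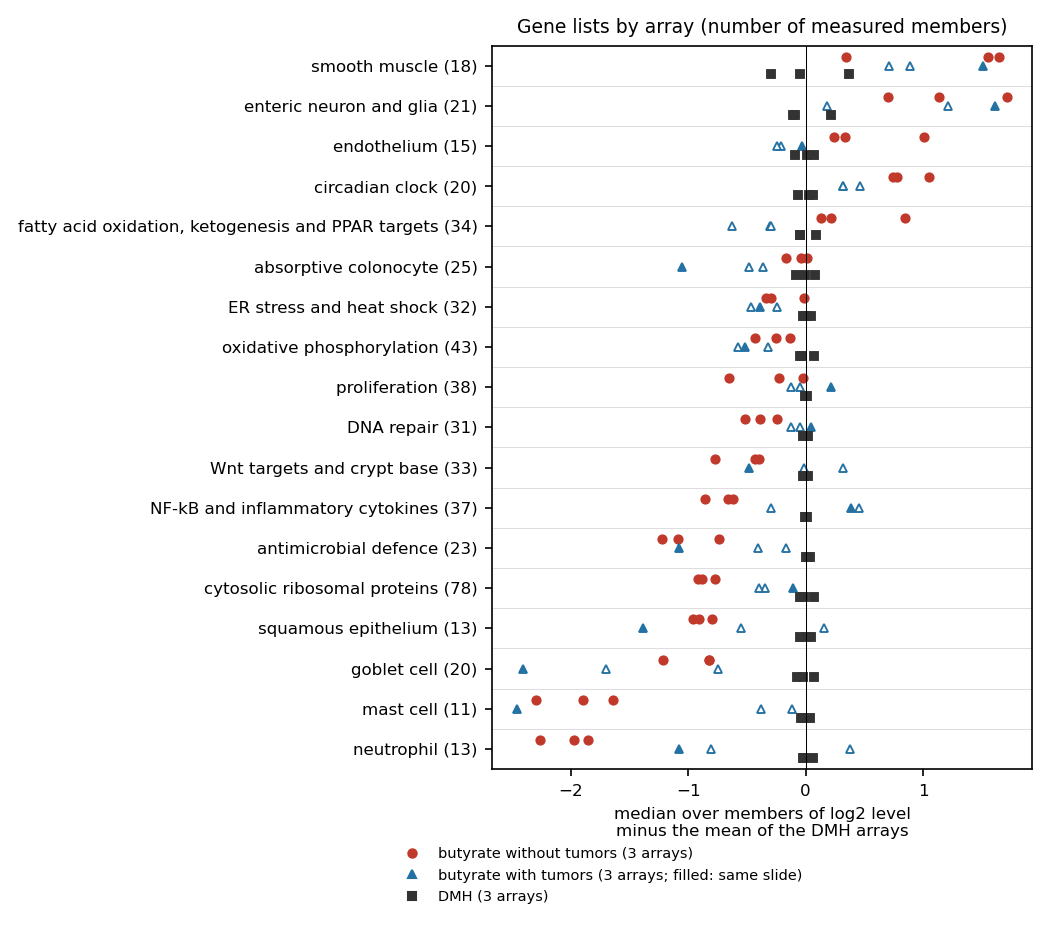
For each gene list, the median over its measured members of the log2 level minus the mean of the 3 DMH arrays, 1 point per array, coloured by group. Neutrophil, mast cell and goblet cell genes lie below 0 on the arrays without tumors, ribosomal genes below 0 on all butyrate arrays, and smooth muscle, neuronal and clock genes above 0.

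Oxidation of fatty acids, the route by which colonocytes burn butyrate, was represented by 34 measured genes with PPAR targets, of which 10 rose and 1 fell, against 16.6% higher and 13.8% lower over all features (median 0.39). Array 1 without tumors stood apart, with a summed signal of 666.1 against 405.6 and 442.6 in the other arrays of its group and 456.4, 389.6 and 381.5 in DMH, so the groups overlapped in it. Only Ppargc1a was called with slide as a random block. Ppargc1a, the coactivator that drives mitochondrial oxidation genes, had levels of 1.38, 1.47 and 1.04 without tumors, -0.14, 0.43 and -0.12 with tumors and -0.32, -0.33 and -0.36 in DMH. The arrays without tumors lay above every other array, including the array with tumors on their own slide. The difference was 1.64 (SE 0.20, adjusted p = 0.00196), while a second probe gave 0.04. Hadha, the alpha subunit of the trifunctional protein, had levels of 3.80, 2.92 and 2.85 against 2.00, 1.78 and 1.70, a difference of 1.36 (adjusted p = 0.0137). Cpt1a, the gate of long fatty acids into mitochondria, had levels of 4.92, 4.17 and 4.35 against 3.77, 3.63 and 3.65, a difference of 0.80 (adjusted p = 0.0256). A second, dimmer probe of Cpt1a had -0.12 and did not pass. Acadm, Hadh, Acaa2 and Acat1, later enzymes of the route, rose by 0.69, 0.94, 0.99 and 0.68 (adjusted p = 0.0245, 0.015, 0.0368 and 0.0191). Bdh1, which makes the ketone body hydroxybutyrate, rose by 1.34 (adjusted p = 0.00651), with -0.96 in a second probe. The 1 member that fell was Acads, the dehydrogenase for short fatty acids, which acts on the activated form of butyrate. Its levels were 1.53, 1.16 and 1.57 without tumors, 0.37, 0.79 and 0.78 with tumors and 2.27, 2.08 and 2.16 in DMH, a difference of -0.75 (adjusted p = 0.0196). The PPAR targets Pdk4 (0.61) and Angptl4 (0.29) did not pass. Averaging DMH arrays 2 and 3 left 2 rises and no fall.

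In all 6 genes of cholesterol synthesis that rose, among them Hmgcs1 (0.85), Sqle (0.90) and Msmo1 (0.93), array 3 without tumors was the highest of its group. The list held 26 measured genes, of which 2 fell, the fatty acid synthesis genes Scd1 (-0.91) and Acly (-1.77). Over all features 16.6% were called higher and 13.8% lower. None of the 26 was called with DMH arrays 2 and 3 averaged.

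Enzymes that handle foreign compounds gave 5 rises and 2 falls among 48 measured genes, fewer than the 30.5% called over all features, and none was called with slide as a random block. Gstt1, a glutathione transferase, had levels of 1.16, 0.55 and -0.17 against -1.28, -1.64 and -1.63, a difference of 2.03 (adjusted p = 0.00675), and Nat2, an N-acetyltransferase, rose by 1.09 (adjusted p = 0.00507). Cyp2b10, a drug-inducible cytochrome, fell by 3.27 on the log2 scale (adjusted p = 0.0234), with 1 of the 3 arrays without tumors well above background. Cyp2e1, the cytochrome that activates DMH in the liver, had a difference of -2.64 that did not pass (adjusted p = 0.0996).

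Genes through which butyrate is carried and sensed, and its histone deacetylase targets, gave 2 rises and 4 falls among 22 measured genes (median -0.24). Over all features 16.6% were called higher and 13.8% lower, so the list was called no more often than features at large. None of the 22 was called with slide as a random block. Of the carriers, Slc5a8 had a difference of 0.02 and Slc16a1 of 0.38 (adjusted p = 0.966 and 0.092), and neither passed. A dimmer probe of Slc16a1 was called at 1.50 (adjusted p = 0.0065), and another had 0.50 and did not pass. Slc16a4, a monocarboxylate carrier homologue, was at least 1.22-fold higher (adjusted p = 0.01). Hcar2, the receptor for butyrate and niacin, had levels of -5.52, -4.85 and -5.78 without tumors, -5.04, -3.67 and -3.10 with tumors and -2.57, -2.68 and -2.67 in DMH. All butyrate arrays were below DMH, the difference without tumors was -2.75 (SE 0.46, adjusted p = 0.00548), and 1 of the 3 arrays without tumors was well above background. Ffar2, another receptor of short-chain fatty acids, had -0.63 and did not pass (adjusted p = 0.152).

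Hdac4, a class IIa deacetylase, fell most of its family, with levels of -3.17, -3.93 and -2.52 without tumors, -2.92, -0.60 and -1.64 with tumors and 0.00, 0.34 and 0.27 in DMH, a difference of -3.41 (SE 0.56, adjusted p = 0.00516). The class I genes Hdac2, at -2.71, -2.23 and -1.89 against -1.52, -1.28 and -1.18, and Hdac3, at 1.16, 1.16 and 1.40 against 2.05, 2.14 and 2.11, fell by 0.95 and 0.86 (adjusted p = 0.0248 and 0.0253). Sirt1, a deacetylase of the NAD-dependent class that butyrate does not target, rose by 0.82 (adjusted p = 0.008), while a second, dimmer probe had -0.31 and did not pass. Hdac5 to Hdac11 did not pass, with differences from -1.68 in Hdac5 to 0.32 in Hdac11. Cdkn1a, the p21 inhibitor that deacetylase inhibitors raise in cultured colon cells, had levels that differed by 0.22 (adjusted p = 0.371), and Cdkn1b by 0.45 (adjusted p = 0.0511). Of 7 inhibitors of cyclin-dependent kinases Cdkn2d and Cdkn2a were called lower, against 13.8% lower over all features. The call of Cdkn2a carries no weight, for the reason given below, so the count is not read as a result. Cdkn2d fell by 1.26 on the log2 scale (adjusted p = 0.0104). Cdkn2a was well above background on the 3 DMH arrays alone, through which it entered the test, and is given neither a fold nor a bound.

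**Figure D5:**
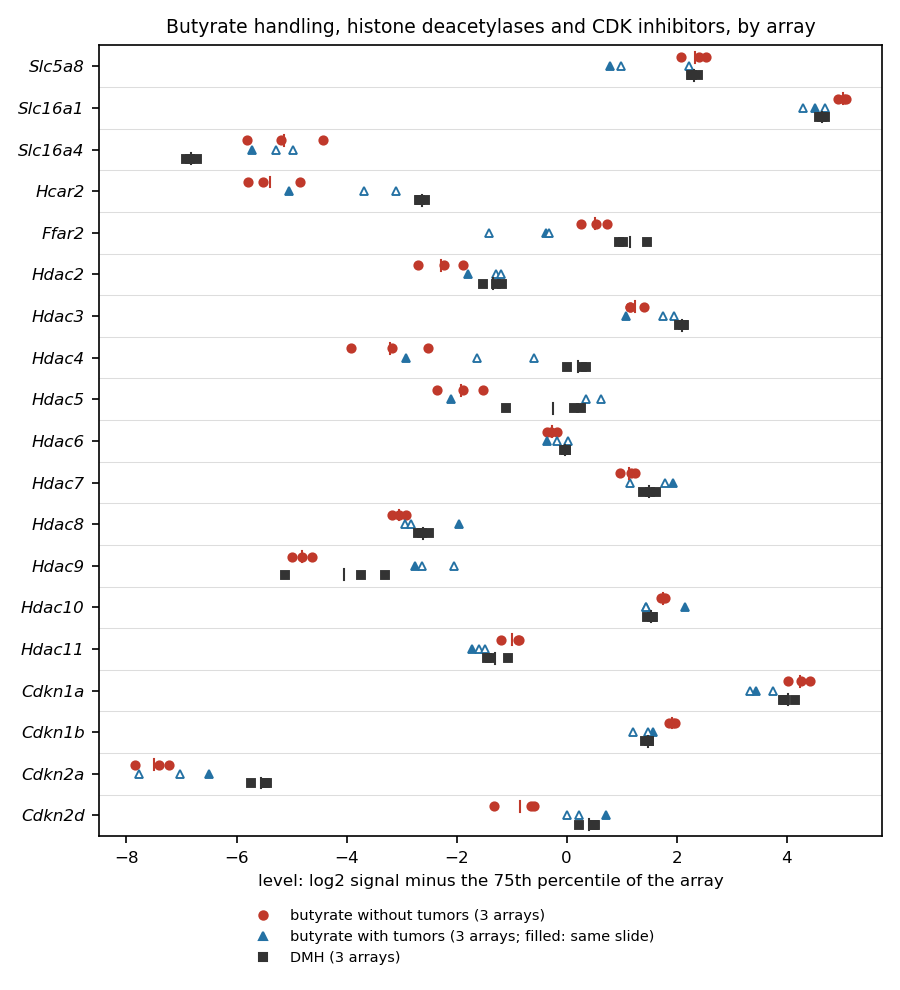
Levels of genes that carry or sense butyrate, of histone deacetylases and of inhibitors of cyclin-dependent kinases (log2 signal minus the 75th percentile of the array) on each of the 9 arrays, by group. Hcar2, Hdac4 and Cdkn2d lie lower without tumors than in DMH, Slc16a4 lies higher, and the groups overlap for Slc5a8 and Cdkn1a.

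A smaller group of genes kept its calls in nearly all settings. Setting aside the fit without scaling and the 2 stricter thresholds, 670 features were called in all 23 other alternatives, 356 higher and 314 lower. Of these, 349 were named (145 higher, 204 lower). A feature that a setting did not test counted as not called there. The filter to probes well above background on all 9 arrays tested 17159 features and the authors' values 17085. Genes dim in 1 group were therefore left out of the 670 whatever their change. The 670, out of 21964 features, held 29 of 78 measured ribosomal protein genes and 7 of 20 clock genes. They also held Ang4, Lypd8 and Lgals4 among 23 genes of antimicrobial defence, and Atp5b and Cox6c among 43 of the respiratory chain. Every other list held 1 such gene or none. The smallest p-value of all named genes was that of Pinx1, an inhibitor of telomerase, chosen for naming after its value was seen, with a difference of -4.10 (SE 0.20, adjusted p = 0.000177) and -1.52 in a second probe. Pabpc1, which binds the poly(A) tails of mRNA, and Noct, a clock-driven enzyme also called nocturnin, were named the same way, at -2.75 and 1.74 (adjusted p = 0.000852 for both), and both were called with slide as a random block.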

How the data were processed

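The files are scanner output of Feature Extraction 10.5.1.1, per the submitters' processing notes. The deposited gProcessedSignal values are intensity after background subtraction and detrending, per the file headers, not scaled between arrays, which would leave brightness differences in the values; gMedianSignal and gBGMedianSignal are unprocessed intensity. The authors' deposited table holds log2 values of 21829 probes, equal to log2 gProcessedSignal minus 1 constant per array (SD at most 0.0091) of unknown meaning, with column medians of 2.71 to 3.20.

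From these, control spots (1639 of 43379) and outlier spots were left out, spots of a probe averaged, and the 75th percentile of each array subtracted from log2 gProcessedSignal. Probes well above background on at least 3 of 9 arrays were kept, with the brightest probe per gene. Symbols came from RefSeq accessions in 1 annotation version, since the DMH files name 4725 probes differently. No spot was saturated. limma 3.58.1 in R 4.3.3 fitted 3 groups of 3 arrays (moderated test, 2-sided), with Benjamini-Hochberg adjustment over 21964 features. If no array of a group was well above background, the fold is a bound against the lowest signal well above background. Such a gene could pass the filter only through arrays of the group where it was high, so its p-value is weak support. The fit was tested on simulated data.

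Members, gene lists and the naming rule (the 12 steepest changes each way, up to 4 called members per list and direction, fixed genes) were chosen with earlier results of these data known; other named members were chosen after their values were seen. Among alternatives, normexp used gMedianSignal. Some genes are not reported here.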

Additional observations from a re-analysis of the deposited data

How the results depend on the processing

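The 6695 calls (3657 higher, 3038 lower) became 2907 (1512 and 1395) with DMH arrays 2 and 3 averaged, 1006 (495 and 511) with slide as a random block, at which arrays of a slide had a consensus correlation of 0.44, and 2132 (1118 and 1014) at an adjusted p under 0.01. They became 3924 (1864 and 2060) when a change of at least 2-fold was also asked for, 12731 (6995 and 5736) with array weights, 1550 (5 and 1545) without scaling and 5628 (3777 and 1851 among 17085 features) with the authors' values. Leaving out 1 array gave 2841 to 9941 calls, 1487 to 5360 higher and 1353 to 4581 lower. Outlier spots, quantile scaling, normexp, other filters, a trend and robust prior, the mean of a gene's probes and a fit of only the 6 arrays kept the total within 1.5 times of the reported one. With the replicate number as a block there were 6866 calls. Same-numbered arrays without tumors and of DMH correlated at 0.26, 0.051 and 0.19 after group means were removed. No correlation was computed between differently numbered arrays, so these values cannot decide whether the numbers pair the samples.

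No scaling turned the sign of 35 called genes, among them Dlat -0.61, Dnajb1 -0.55, Sdha -0.47, Bcl2l1 -0.44, Sdhb -0.41, Perp -0.41, Ctss -0.40, Egf -0.39, Maff -0.37, Vwf -0.36, Canx -0.34, Ptger4 -0.34, Gpi1 -0.32, Cpt1a -0.28, Nrarp -0.27, Sirt1 -0.26, Ddit3 -0.23, Emcn -0.22, Srebf2 -0.22, Slc9a2 -0.21, Sqle -0.18, Pfkl -0.18, Msmo1 -0.15, Erbb2 -0.14, Cyp51 -0.14, Hadh -0.14, Tjp1 -0.11, Bmi1 -0.11, Scnn1a -0.11, Timp3 -0.10, Gbp2 -0.0625, Tcf7l2 -0.0437, Pparg -0.0378 and Epgn -0.0353, on a scale whose median over all features was -1.004. The mean over a gene's probes turned the sign of 8, among them Ceacam1 0.12, Mdm2 0.0824, Sdha -0.28, Canx -0.94, Cyp51 -0.0568, Scnn1a -0.44 and Apc -0.0399. The cause was not tested beyond these 2 constructions. Of the 203 called named genes, 96 lost their call with DMH arrays 2 and 3 averaged. Another probe was measured for 54 of the 203. Among these 65 other probes 43 had the same sign, 24 of them called, and 22 had the opposite sign, 6 of them called. Where no array of a group was well above background, signal limits the fold to a bound.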

Other observations

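Genes of retinoid handling gave 4 rises and 2 falls among 24 measured genes, near the 16.6% higher and under the 13.8% lower over all features, and Stra6 and Rbp2 alone were called with slide as a random block. Beside Stra6, the fall was of Aldh1a3, which makes retinoic acid, with levels of -1.65, -0.41 and -1.10 without tumors, -0.03, 2.03 and 2.52 with tumors and 2.50, 2.71 and 2.65 in DMH. Both arrays of slide 2 lay near DMH, and the difference without tumors was -3.67 (SE 0.61, adjusted p = 0.00536). Adh4, an alcohol dehydrogenase that acts on retinol, rose by 2.73 (adjusted p = 0.0245), with 1 of the 3 DMH arrays well above background. Cyp26b1, which breaks retinoic acid down, rose by 2.15, Rarb, a retinoic acid receptor and target, by 1.34, and Rbp2, a retinol carrier of absorptive cells, by 1.15 (adjusted p = 0.00937, 0.00512 and 0.00747). A second probe of Rbp2 had -0.23 and did not pass. Notch genes gave 5 rises and 2 falls among 20: the receptor gene Notch3 rose by 1.25, the ligand gene Dll1 by 1.18 and the effectors Hey2, Heyl and Nrarp by 1.61, 1.32 and 0.81, while the ligand gene Dll4 had -1.21 and Hes6 had -1.25 (adjusted p = 0.00556 to 0.0358), and none was called with slide as a random block. Of 13 genes of the EGF receptor family 3 rose (Erbb2, Egf and Epgn) and 2 fell (Areg and Btc), none of them called with slide as a random block.

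Other lists held few called members, against 16.6% higher and 13.8% lower over all features. Ifi44, an interferon-induced gene, had a difference of -3.11 (adjusted p = 0.00153, measured on 2 arrays without tumors), among 33 interferon-stimulated genes of which 2 rose and 2 fell. Of 23 tight junction genes Tjp1, a scaffold protein also called ZO-1, rose by 0.97 and Tjp3 fell by 0.94 on the log2 scale (adjusted p = 0.00856 and 0.0182). A second, dimmer probe of Tjp1 had -0.41 and did not pass. In polyamine metabolism Azin1, which frees ornithine decarboxylase from its inhibitor, had levels of 3.35, 3.00 and 3.27 against 2.05, 1.98 and 2.03. It was higher in all 3 arrays, by 1.19 (SE 0.17, adjusted p = 0.00357). A dimmer probe of Azin1 was called at 1.08, and another had -0.39 and did not pass. Among immediate early genes Fosb and Dusp1 rose by 1.30 and 1.16, and Ier3 fell by 2.04 (adjusted p = 0.00869, 0.00576 and 0.00678).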
